A study of Mus musculus with 4 samples.

Results

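Macrophages signal to T cells through surface molecules that sit beside the antigen-presenting complex. The B7 ligands CD80 and CD86 engage CD28 and CTLA-4 on T cells, ICOS ligand engages ICOS, and CD40 is the receptor for CD40 ligand. PD-L1 and PD-L2 engage the inhibitory receptor PD-1, VISTA is an inhibitory member of the B7 family, and TIM-3 and CD200R1 are inhibitory receptors that macrophages and other myeloid cells themselves carry. CD38 is a surface enzyme that consumes NAD and is known as a marker of inflammatory macrophages in the mouse. The transcripts of these molecules, 10 genes chosen by name (Cd40, Cd80, Cd86, Cd38, Cd274, Pdcd1lg2, Icosl, Vsir, Havcr2 and Cd200r1), were examined in peritoneal macrophages. All 10 had a row among the 15575 listed genes, and none was lost to the filter on low counts.

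The AGEs group came from male C57BL/6 mice of 8 to 12 weeks that were given AGEs, here BSA modified with dehydroascorbic acid (DHA-BSA), and the BSA group from such mice given unmodified BSA. Either protein was given by intravenous injection, 10 mg/kg/day, beginning 24 h ahead of an intraperitoneal injection of thioglycollate (TG), a sterile irritant that recruits monocytes and macrophages, so every library came from elicited cells and none from an unstimulated cavity. Cells were collected 72 h after TG and enriched by adherence for 2 h, and each group had 2 libraries of rRNA-depleted total RNA, which the study calls biological duplicates. Whether 1 mouse or several gave the cells of a library is not stated. P-values measure only the spread between these libraries. Fewer cells of a type and less RNA per cell cannot be told apart in such bulk samples.

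The libraries held 23079245 and 24472926 counts in the AGEs group, against 17773088 and 22146761 in the BSA group. The 10 genes together took 0.0750% to 0.0800% of the counts of a library. All 11 macrophage markers examined, among them Adgre1, the gene of F4/80, and Csf1r, were listed, with a sum of 15944 and 16854 CPM (counts scaled to library size after TMM normalization) in the AGEs libraries and 18808 and 14800 CPM in the BSA libraries. Of 14 T cell markers, Cd3e, Cd3d, Cd3g, Trac and 6 others had no row. The 4 with a row were Il7r, Lat, Lck and Cd4. Il7r had 336 and 316 CPM in the AGEs libraries, against 350 and 364 CPM in the BSA libraries. Lat, Lck and Cd4 had at most 4.99 CPM. The cell source of these reads was not tested. The fold changes of genes above a log2 CPM of 3 followed the GC content of their transcripts (Spearman's rho 0.466 across genes, which are not independent replicates).

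None of the 10 genes passed the study's threshold (a change above 1.5-fold with an unadjusted p below 0.05) in edgeR's quasi-likelihood test of AGEs against BSA, which 1.77% of the 14181 genes tested did. The count at an unadjusted p under 0.05 alone was 0 of 10, against 5.64% of all genes tested, and DESeq2 and limma-voom also gave 0 past the threshold. No gene of the whole table had an adjusted p under 0.05 by edgeR. The 10 log2 fold changes were divided into 5 above and 5 below 0, with a median of -0.020, against -0.0026 over all genes tested. The adjusted p of the 10 genes lay between 0.898 and 0.976 (edgeR, Benjamini-Hochberg over all genes tested). For 6 of the 10, the 95% interval of the fold change lay inside 1.5-fold in both directions, as it did for 53.6% of all genes tested, and for Cd80, Cd86, Icosl and Pdcd1lg2 it reached beyond.

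**Figure D1:**
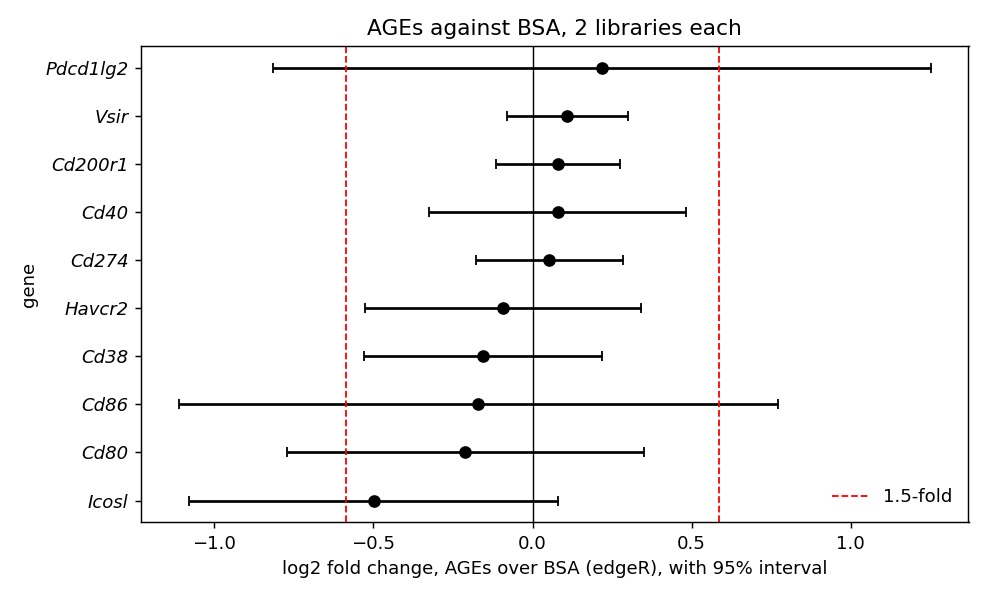
Log2 fold change of AGEs over BSA for the 10 genes (points) with its 95% interval from edgeR (bars), 2 libraries a group, and dashed lines at 1.5-fold. Every interval includes 0, and those of Vsir, Cd200r1, Cd274, Cd40, Havcr2 and Cd38 stay between the dashed lines.

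Levels per transcript length differed far more between the genes than between the groups. In the authors' FPKM (fragments per kilobase of transcript, scaled to the size of the library), averaged over the 4 libraries, Vsir stood at 85.0, Cd200r1 at 52.1, Cd86 at 25.6 and Cd274 at 13.7. Cd40, Cd80 and Cd38 followed at 6.70, 5.66 and 5.52 FPKM, then Havcr2 at 3.66, Icosl at 1.80 and Pdcd1lg2 at 0.391. The ranges over the 4 libraries of Cd40, Cd80 and Cd38 overlapped, so that these 3 neighbours in the order did not differ beyond their spread, while every other pair of neighbours had separate ranges. By mean FPKM, Vsir was above or equal to 97.0% of the listed genes and Pdcd1lg2 to 15.0%. The transcripts of 5 inhibitory molecules (Vsir, Cd200r1, Cd274, Havcr2 and Pdcd1lg2) made up 80.6% and 77.6% of the summed FPKM of the 10 genes in the AGEs libraries, against 71.6% and 80.0% in the BSA libraries. Those of the 4 activating ones (Cd86, Cd80, Cd40 and Icosl) made up 17.2% and 19.5%, against 25.3% and 17.2%. In both sums BSA replicate 1 lay apart, and BSA replicate 2 lay near or within the range of the AGEs libraries.

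**Figure D2:**
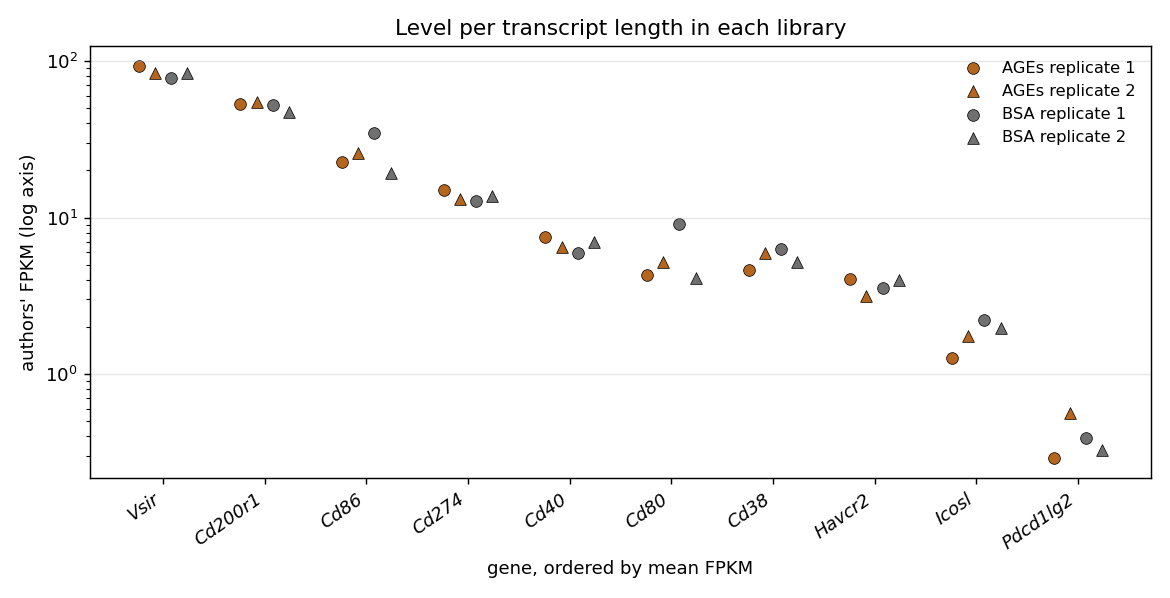
The authors' FPKM (log axis) of each gene in each of the 4 libraries, ordered by the mean, with AGEs libraries in brown and BSA libraries in grey. The genes span 85.0 to 0.391 FPKM on average, and the AGEs and BSA points overlap for all but Icosl, where both AGEs points are lower, and Vsir and Cd200r1, where both are higher. The share of all genes that separate in FPKM was not determined.

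The largest differences among the ligands of CD28 and CTLA-4 were found within the BSA group. Cd86 (Entrez gene 12524, on chromosome 16 of GRCm38 at 36568956 to 36666158) had 64.0 and 73.5 CPM in the AGEs libraries, against 99.1 and 56.1 CPM in the BSA libraries. The AGEs libraries both lay between the BSA libraries. For Cd86 the log2 fold change was -0.17 (SE 0.32, 95% interval -1.11 to 0.77). Cd80 (Entrez gene 12519, chromosome 16 from 38457430 to 38495958) had 10.8 and 13.0 CPM in the AGEs libraries, against 17.9 and 9.83 CPM in the BSA libraries, which again enclosed both AGEs libraries. The log2 fold change was -0.21 (SE 0.26, 95% interval -0.77 to 0.35). The 4 libraries stood in the same order for both genes, with BSA replicate 1 highest and BSA replicate 2 lowest. BSA replicate 1 exceeded BSA replicate 2 by 1.77-fold for Cd86 and 1.82-fold for Cd80. Of the 8921 genes above a log2 CPM of 3, 0.785% and 0.560% differed more than these between the BSA libraries. The AGEs libraries differed by 1.15-fold for Cd86 and 1.20-fold for Cd80.

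The direction of both genes therefore turned with the BSA library that was left out. Without BSA replicate 1, the log2 fold change was 0.29 for Cd86 and 0.27 for Cd80. Without BSA replicate 2, it was -0.52 for Cd86 and -0.58 for Cd80, both under the limit of 1.5-fold. These are given as values only, since a fit with 1 BSA library takes the spread from the AGEs pair and does not see that between the BSA libraries. With the trend of each library on GC content removed, the values were -0.11 and -0.14, and the transcripts of both genes were of low GC content (43.2% and 42.7%). Dendritic cells also carry CD80 and CD86. Of 10 dendritic cell markers listed, 5 passed the threshold lower and 1 higher in the AGEs libraries (0.945% and 0.825% of all genes tested). The 10 markers summed to 68.2 and 70.7 CPM in the AGEs libraries, against 97.5 and 81.3 CPM in the BSA libraries. Most of each sum came from Cd83 (52.5 and 51.1 CPM, against 69.7 and 56.9 CPM), which did not pass. Every other listed marker lay at or below 7.79 CPM. Those past the threshold were Flt3, Cd209a, Ccr7, Kmo and Ccl22, lower, and Fscn1, higher. Flt3 had 16 and 38 counts in the AGEs libraries, against 56 and 59 in the BSA libraries. Zbtb46 had 64 and 94, against 63 and 67, and did not pass. Of the 15 markers examined, Xcr1, Clec9a, Itgae, Ccl17 and Il12b had no row. The 8 markers of resident large peritoneal macrophages summed to 244 and 190 CPM in the AGEs libraries, against 260 and 150 CPM in the BSA libraries. BSA replicate 1 was again highest and BSA replicate 2 lowest. The same held for the sums of the 11 macrophage markers and of the 4 eosinophil markers listed. This order was therefore not particular to the resident markers. Of the 8 resident markers, 1 passed the threshold higher (0.825% of all genes tested). The part of any of these cell types in the Cd80 and Cd86 values was not tested.

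**Figure D3:**
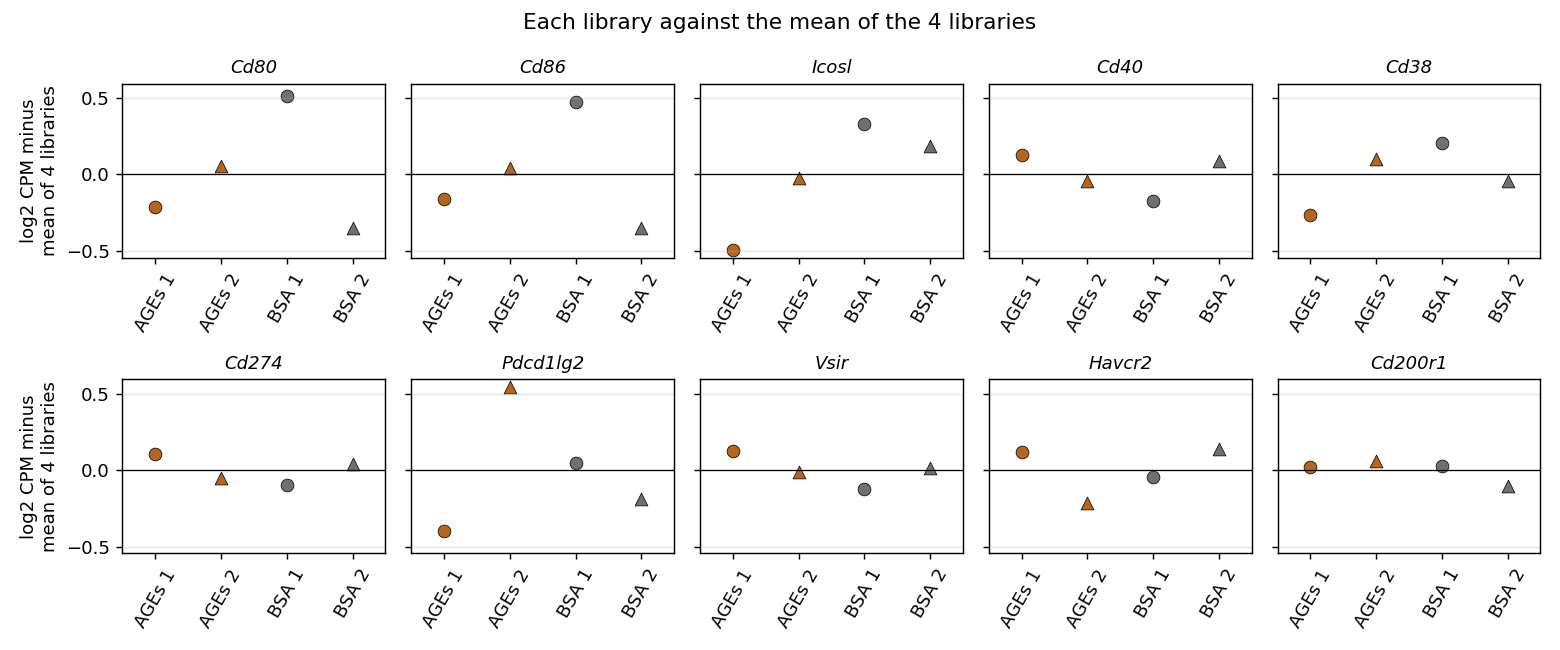
Log2 CPM of each library minus the mean of the 4 libraries, for each gene, with AGEs libraries in brown and BSA libraries in grey. BSA replicate 1 is highest and BSA replicate 2 lowest for both Cd80 and Cd86, and Icosl has both AGEs libraries below both BSA libraries.

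Icosl, the ligand of the T cell receptor ICOS (Entrez gene 50723, chromosome 10 from 78069368 to 78079525), had the lowest p of the 10 genes and was the only one whose groups did not overlap in CPM. It had 90 and 132 counts in the AGEs libraries, against 126 and 139 in the BSA libraries, or 3.93 and 5.43 CPM against 6.96 and 6.30 CPM. Among all genes tested, 35.3% had groups that did not overlap, 17.7% with AGEs below and 17.7% with AGEs above, so 1 of 10 is not more than the background. The log2 fold change was -0.50 (SE 0.27, 95% interval -1.08 to 0.08), with an unadjusted p of 0.0857 and an adjusted p of 0.898 (edgeR). It remained negative with each library left out, from -0.75 without AGEs replicate 2 to -0.28 without AGEs replicate 1. B cells also express Icosl at high levels. All 14 B cell markers examined were listed, at a summed 235 and 278 CPM in the AGEs libraries, against 199 and 242 CPM in the BSA libraries and the sums of the groups overlapped. Of these 14 genes, 1 passed the threshold lower (0.945% of all genes tested) and none higher, while 10 were above 0, with a median log2 fold change of 0.17.

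Cd40, the receptor of the TNF receptor family through which T cells activate macrophages (Entrez gene 21939, chromosome 2 from 165055614 to 165071654), was at 14.1 and 12.6 CPM in the AGEs libraries, against 11.5 and 13.8 CPM in the BSA libraries. The groups overlapped. The log2 fold change was 0.08 (SE 0.19, 95% interval -0.32 to 0.48). Cd38 (Entrez gene 12494, chromosome 5 from 43868809 to 43912374) was at 15.7 and 20.2 CPM in the AGEs libraries, against 21.8 and 18.3 CPM in the BSA libraries, with AGEs replicate 2 between the BSA libraries. The log2 fold change was -0.16 (SE 0.17, 95% interval -0.53 to 0.22). Bst1, the neighbouring gene of a related NAD-consuming enzyme, had a log2 fold change of 0.24 (SE 0.15, 95% interval -0.10 to 0.57).

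The ligands of PD-1 lie side by side on chromosome 19, with 22824 bases between them in GENCODE, and differed greatly in level. Cd274, the gene of PD-L1 (Entrez gene 60533, from 29362107 to 29388095), had 34.96 times the mean FPKM of Pdcd1lg2, the gene of PD-L2 (Entrez gene 58205, from 29410919 to 29472927). The ratio was 51.6 and 23.5 in the AGEs libraries, against 32.9 and 42.4 in the BSA libraries, so the groups overlapped. The 250 bases before the transcript start that the RefSeq table gives for each gene (GRCm38.p6, plus strand, chr19:29367188-29367437 and chr19:29410669-29410918) are shown 5′ to 3′ because the genes are neighbours of unequal level, with motif matches in capitals.
Cd274: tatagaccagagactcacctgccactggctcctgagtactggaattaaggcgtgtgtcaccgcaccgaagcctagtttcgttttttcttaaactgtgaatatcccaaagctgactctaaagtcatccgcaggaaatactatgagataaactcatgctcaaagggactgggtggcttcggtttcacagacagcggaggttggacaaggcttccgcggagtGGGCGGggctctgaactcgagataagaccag
Pdcd1lg2: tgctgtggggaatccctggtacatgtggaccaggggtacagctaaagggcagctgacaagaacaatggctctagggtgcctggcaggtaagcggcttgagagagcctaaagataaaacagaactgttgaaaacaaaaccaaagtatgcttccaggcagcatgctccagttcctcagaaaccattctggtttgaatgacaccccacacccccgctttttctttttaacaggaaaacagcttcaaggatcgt
The window of Pdcd1lg2 ends where the span given above for its gene begins. That of Cd274 lies inside the span of its gene, so the windows are not at like positions. The capitals mark a GC box (GGGCGG on either strand), which 32.7% of 32851 such windows hold. The window of Pdcd1lg2 held none of the 6 motifs searched on both strands, which besides the GC box were TTCNNNGAA (the GAS element of interferon-gamma signalling, in 7.02% of windows), the core of the interferon-stimulated response element (2.98%), TATAAA (12.4%), GAGGAAGT (a core of sites for the macrophage factor PU.1, 2.44%) and TGANTCA (the AP-1 site, 6.75%). Of the 7 genes with a window in the table, Cd274, Icosl and Vsir held the GC box, Cd80 and Havcr2 the AP-1 site and Havcr2 the PU.1 core. None held the GAS element, the interferon-response core or the TATA box. The window of Cd80 also lies inside the span of its gene.

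Between the groups, Cd274 had 61.1 and 54.7 CPM in the AGEs libraries, against 53.2 and 58.4 CPM in the BSA libraries. The groups overlapped, and the log2 fold change of 0.05 (SE 0.11, 95% interval -0.18 to 0.28) had an interval inside 1.5-fold. Plgrkt, a plasminogen receptor gene that lies 65 bases from Cd274 on the opposite strand, had a log2 fold change of -0.13 (SE 0.11). Pdcd1lg2 rested on few reads, with 26 and 53 counts in the AGEs libraries, against 28 and 29 in the BSA libraries. For Pdcd1lg2 the log2 fold change was 0.22 (SE 0.48, 95% interval -0.81 to 1.25), 0.61 without AGEs replicate 1 and -0.33 without AGEs replicate 2. The AGEs libraries thus lay on either side of the BSA libraries and differed from each other by 1.92-fold. The interval reached beyond 1.5-fold in both directions. The antisense gene A930007I19Rik overlaps Pdcd1lg2 and had 23 and 24 counts in the AGEs libraries, against 21 and 32 in the BSA libraries. Since the sources used here do not state that counting used the strand, the reads of this pair may be shared.

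Vsir, the gene of VISTA (Entrez gene 74048, chromosome 10 from 60346851 to 60430294), was the most abundant of the 10 genes. It had 509.6 and 463.1 CPM in the AGEs libraries, against 430.1 and 471.6 CPM in the BSA libraries. BSA replicate 2 lay between the AGEs libraries. The log2 fold change was 0.11 (SE 0.09, 95% interval -0.08 to 0.30), and it was 0.04 to 0.18 with each library left out and 0.05 with GC trends removed. In FPKM, which is scaled in another way, both AGEs libraries (93.7 and 84.4) were above both BSA libraries (77.6 and 84.1). For FPKM the share of all genes so separated was not determined, and no change is read from it. Vsir overlaps the gene Cdh23 on the opposite strand, which was not analysed here. The ratio of Vsir to Cd274 in FPKM was 6.27 and 6.39 in the AGEs libraries, against 6.09 and 6.08 in the BSA libraries, and so varied less than either gene did.

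The inhibitory receptors were as close between the groups. Havcr2, the gene of TIM-3 (Entrez gene 171285, chromosome 11 from 46454931 to 46481255), had 12.3 and 9.76 CPM in the AGEs libraries, against 11.0 and 12.5 CPM in the BSA libraries. The groups overlapped, with AGEs replicate 2 lowest, and the log2 fold change was -0.09 (SE 0.20, 95% interval -0.53 to 0.34). Cd200r1, the receptor of the CD200 glycoprotein (Entrez gene 57781, chromosome 16 from 44765736 to 44794977), had 113.7 and 117.1 CPM in the AGEs libraries, against 114.1 and 104.2 CPM in the BSA libraries. It had the narrowest spread between the AGEs libraries of the 10 genes (1.03-fold) and a log2 fold change of 0.08 (SE 0.09, 95% interval -0.11 to 0.28), with 0.02 to 0.14 when each library was left out. In FPKM the AGEs libraries (53.5 and 54.6) were both above the BSA libraries (52.7 and 47.5), while in CPM the groups overlapped. The share of all genes so separated in FPKM was not determined, so no change is read from this. The adjacent family member Cd200r4 was at -0.18 (SE 0.11), and reads of these paralogs may be shared. Mast cells also carry CD200R1. The 8 mast cell and basophil markers listed summed to 12.6 and 13.0 CPM in the AGEs libraries, against 5.36 and 11.5 CPM in the BSA libraries, and 2 of the 8 passed the threshold higher (0.825% of all genes tested). Their part in the Cd200r1 values was not tested.

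**Figure D4:**
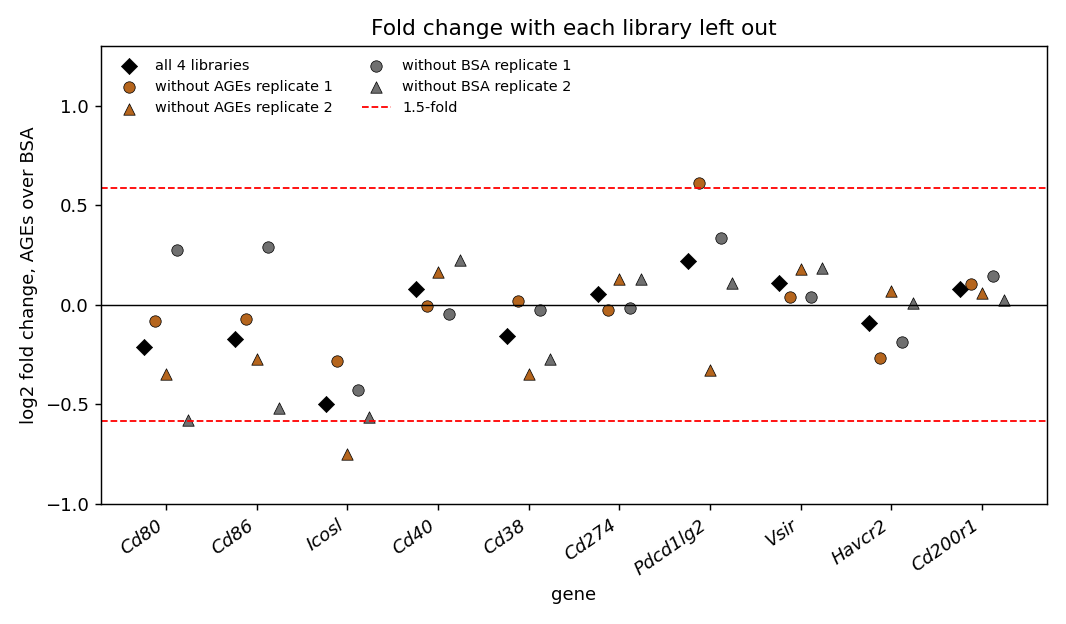
Log2 fold change of AGEs over BSA from edgeR with all 4 libraries (diamonds) and with each library left out, and dashed lines at 1.5-fold. Cd80 and Cd86 change sign without BSA replicate 1, Pdcd1lg2 without AGEs replicate 2, and Cd40, Cd38, Cd274 and Havcr2 also cross 0, while Icosl, Vsir and Cd200r1 keep their sign.

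Genes that work with these molecules were examined in 7 lists of 102 tested genes, of which 2 passed the threshold, 1 in each direction, a share near the 1.77% of all genes tested. Of 16 T cell counter-receptors, Pdcd1, Icos, Cd40lg and 7 others had no row. Of the 6 tested, Tigit, an inhibitory receptor of T and NK cells, passed higher, with 21 and 24 counts in the AGEs libraries, against 8 and 4 in the BSA libraries. The log2 fold change was 1.63 (SE 0.63, adjusted p = 0.848 by edgeR). The call was lost with DESeq2 (1.63, unadjusted p = 0.0909) and with limma on log2(TPM + 1), where the value was 0.05. With each library left out, the value ran from 1.10 without BSA replicate 2 to 2.36 without BSA replicate 1. None of the other 5 passed, and the median of the list was 0.12. In the list of NAD-handling genes, 1 of 17 passed, Kmo, an enzyme of tryptophan degradation towards NAD, with 14 and 8 counts in the AGEs libraries, against 20 and 30 in the BSA libraries. For Kmo the log2 fold change was -1.39 (SE 0.56, adjusted p = 0.860 by edgeR), a call lost with DESeq2 (-1.40, unadjusted p = 0.0874) and on log2(TPM + 1) at -0.48. With each library left out, its value ran from -1.89 without AGEs replicate 1 to -1.01 without AGEs replicate 2. Kmo was also among the dendritic cell markers above.

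No gene of the other 5 lists passed the threshold. Among 17 other B7 and immunoglobulin-superfamily ligands tested, the median log2 fold change was -0.010. The smallest p values belonged to Igsf8 (0.19, SE 0.09), Slamf7 (-0.16, SE 0.10) and Slamf9 (0.39, SE 0.24). Slamf9 was at 0.04 to 0.68 with each library left out. Of 12 ligands of the TNF family, 4 were tested, with a median of 0.010. The values were -0.69 (SE 0.60) for Tnfsf9, the ligand of 4-1BB, -0.17 (SE 0.16) for Tnfsf13 and 0.19 (SE 0.19) for Tnfsf12. The 25 other inhibitory receptors and ligands of myeloid cells had a median of 0.056, led by Siglec1 (0.20, SE 0.09), Clec12a (0.22, SE 0.11) and the phosphatase gene Ptpn6 (0.18, SE 0.09). Among 12 genes that relay CD40 signals, 3 were above and 9 below 0 with a median of -0.036, and the smallest p belonged to Birc2, a ubiquitin ligase bound to TRAF proteins (-0.31, SE 0.12), before Nfkb2 (0.13, SE 0.11) and Chuk (-0.10, SE 0.09). Among 21 regulators of these surface molecules, 14 were above and 7 below 0 with a median of 0.051. Spi1, the gene of the myeloid transcription factor PU.1, was at 0.29 (SE 0.09) on the log2 scale, and the class II transactivator Ciita at 0.26 (SE 0.11). Both lay under the fold limit, with both AGEs libraries above both BSA libraries in CPM (as in 17.7% of all genes tested), and their adjusted p was 0.807 for Spi1 and 0.860 for Ciita (edgeR). With GC trends removed, Spi1 was at 0.14, Ciita at 0.18, Igsf8 at 0.05 and Siglec1 at 0.09. Ptpn6 was at 0.10, Tnfsf12 at 0.05 and Chuk at -0.03, so that several of the named list genes lay closer to 0. Clec12a at 0.30, Tnfsf13 at -0.22 and Tnfsf9 at -0.73 lay further from 0.

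**Figure D5:**
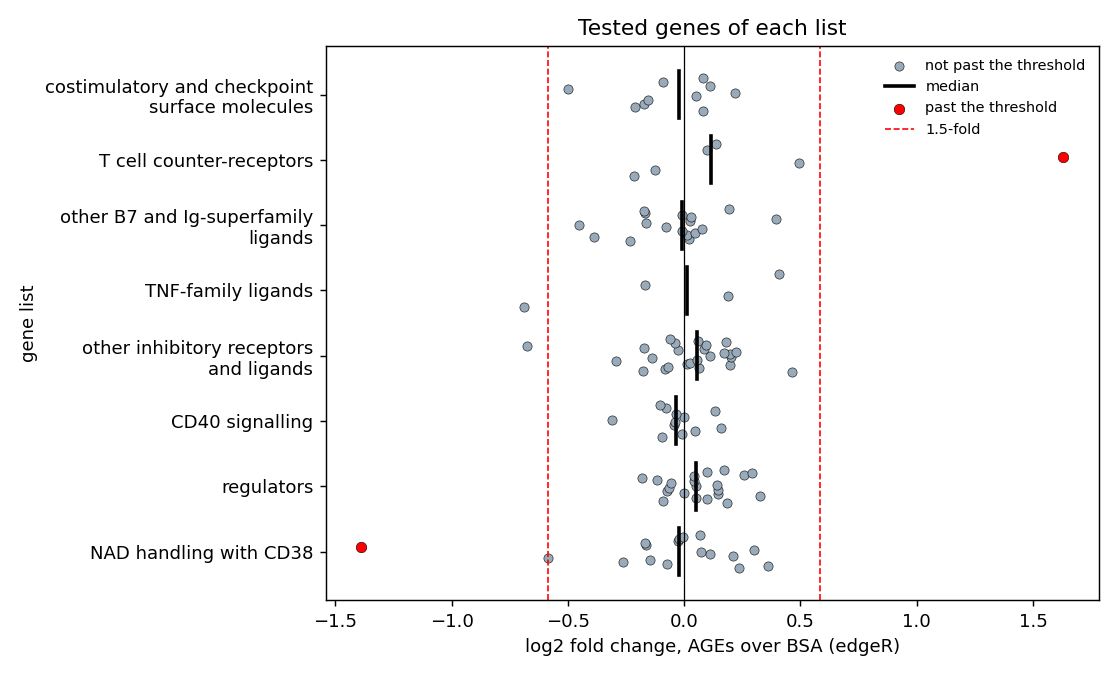
Log2 fold change of AGEs over BSA for every tested gene (points) of the 10 surface molecules and of the 7 lists of partner genes, with the median of each list (black bars) and dashed lines at 1.5-fold. Only Tigit and Kmo passed the threshold (red).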

How the data were processed

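The authors aligned paired reads of 100 bp from stranded libraries to mm10 (GRCm38) using HISAT2 2.1.0, took expression values from StringTie 2.1.3b, ran DESeq2 and deposited a count, a TPM and an FPKM for each gene and library. No source used here states whether counting used the strand. The deposited FPKM served for levels between genes and the TPM for 1 alternative test. The columns of the authors' own comparison (fold change, mean, standard error, statistic, p-values, group means) and 4 further columns of log2 values per library were not used. AGEs and BSA counts were compared by edgeR 4.0.16 under R 4.3.3 (TMM, filterByExpr, robust glmQLFit and glmQLFTest, no block), over all 14181 genes kept. The standard error is the log2 fold change over the root of F, and the 95% interval uses the moderated degrees of freedom. Gene positions and promoter windows are RefSeq's of GRCm38.p6, and overlaps and GC content come from GENCODE vM21. The edgeR fits with and without the replicate block, limma-voom, DESeq2 and the removal of a GC trend were tried on simulated counts. The other steps were not. Alternatives were DESeq2 1.42.0, limma 3.58.1, other normalizations, filters and thresholds, a replicate block, each library left out, and removal of GC trends. The 10 genes and all lists were chosen with earlier results of these data known. The text names the 10 genes, every list gene past the threshold or else the 3 with the smallest p, and, where a value is set beside a member's, a gene next to it on the genome. The values of other neighbours are left out, and 1 list gene is not reported here. The motifs were chosen after the files had been opened. Intervals cover counting error and the spread of 2 libraries a group only.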

Additional observations from a re-analysis of the deposited data

How the results depend on the processing

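The count of the 10 surface molecules past the threshold was 0 with every alternative, including the replicate block, which changed no call of a named gene and gave 264 genes of the whole table past the threshold. The numbers 1 and 2 are only names, since the labels tie no AGEs library to a BSA library (correlation of same-numbered deviations 0.028 across genes). On log2(TPM + 1), which shifted the median of all genes by -0.070, the log2 fold changes of Cd40 (-0.00016), Cd274 (-0.039) and Cd200r1 (-0.011) turned negative, and with GC trends removed that of Nfkb2 did (-0.033, and -0.027 with the replicate block). GC removal made the values of Cd200r1 (0.15), Cd274 (0.10), Cd40 (0.088) and Icosl (-0.54) larger in size. It made those of Cd38 (-0.082), Havcr2 (-0.050), Cd80, Cd86 and Vsir smaller, and left Pdcd1lg2 (0.22) nearly unchanged. With 1 library left out, values ran from -0.58 to 0.27 for Cd80, -0.52 to 0.29 for Cd86, -0.35 to 0.017 for Cd38, -0.047 to 0.22 for Cd40, -0.028 to 0.13 for Cd274, -0.33 to 0.61 for Pdcd1lg2, -0.27 to 0.066 for Havcr2, -0.40 to 0.098 for Tnfsf13, -0.090 to 0.55 for Tnfsf12 and -0.010 to 0.53 for Bst1, all of which changed sign. Of those that kept it, Clec12a ran from 0.10 to 0.36, Slamf7 from -0.26 to -0.06, Slamf9 from 0.04 to 0.68, Tnfsf9 from -1.61 to -0.12 and Cd200r4 from -0.29 to -0.05. In such a fit the lone library is assumed to vary like the pair of the other group. The causes were not tested. Of the 102 genes in the lists, 2 passed in edgeR, but 0 with DESeq2, with a minimum of 50 counts in 2 libraries, on log2(TPM + 1) or by adjusted p, and 1 (without AGEs replicate 2) to 5 (without BSA replicate 2) with 1 library left out, 4 without BSA replicate 1. Over all genes, 251 passed (117 higher, 134 lower with AGEs), 143 with DESeq2, 127 with that minimum, 136 at a fold limit of 2, 0 by adjusted p, and 270 to 543 with 1 library left out (543 without BSA replicate 2). On log2(TPM + 1) the split was 59 higher and 142 lower. At 50 counts Pdcd1lg2 was not tested. Low counts limit Pdcd1lg2, Tigit, Kmo and Tnfsf9 (24 and 9 counts in the AGEs libraries, against 26 and 19 in the BSA libraries).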
